A study of Mus musculus with 6 samples.

Results

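The genes described here are those of the embryonic and cardiac sarcomere: the developmental and specialised myosin heavy chain genes Myh3, Myh8, Myh13 and Myh6, the light chain gene Myl4, the cardiac actin gene Actc1, the cardiac troponin genes Tnnt2 and Tnni3, and the natriuretic peptide genes Nppa and Nppb. They were chosen by name, and every region that the authors' table assigns to one of these 10 symbols was taken, which gave 40 of 202553 regions. The mark was H3K9me3, typical of constitutive heterochromatin, and the assay CUT&Tag, where antibody-bound chromatin is cut and tagged in place by a tethered transposase. The tissue was frozen quadriceps femoris, a limb muscle, from Prr14-KO mice (3 libraries, replicates 4, 5 and 7) and Prr14-WT mice (3 libraries, replicates 3, 4 and 8). Prr14 encodes a protein that tethers heterochromatin to the nuclear lamina, and the title of the study names mechanotransduction, myofibre identity and MEF2C. The sources used here give neither the knockout allele, nor the age and sex of the mice, nor whether each library is a different mouse, so p-values measure the spread between these libraries. Values per library are given in the order of these replicate numbers.

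Muscle cells change their sarcomere as they mature. Embryonic and perinatal fibres use myosin heavy chains, a light chain, an actin and a troponin T that adult limb fibres largely replace by fast or slow forms, while the heart keeps cardiac actin and the cardiac troponins for life. Natriuretic peptides are hormones of heart muscle cells, and their genes belong with the cardiac developmental programme. H3K9me3 is a mark of silent chromatin, bound by HP1 proteins, and is found mostly at repeats, zinc finger gene clusters and gene-poor domains. It does not measure expression, so neither the muscle identity of the sample nor its makeup of cell types can be checked from these counts.

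Library totals over all regions ran from 4324444 to 4707466 counts in the knockouts and from 4636898 to 4756133 counts in the wild types. The 40 regions held 547, 539 and 515 counts in the knockouts and 625, 528 and 599 counts in the wild types. Scaled to library size, their sum was 120 ± 3.92 CPM (counts scaled to a common library size, with TMM factors) in the knockouts and 124 ± 9.29 CPM in the wild types (SD, n = 3 each), and the groups overlapped. A region held between 4.83 and 25.7 counts per library on average, with a median of 13.1, against 15 over all regions. Their median width was 324.5 bp (from 143 to 985 bp), against 318 bp over all regions.

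Most of these regions did not lie in the gene whose name they carry. By RefSeq (GRCm38.p6), 15 of the 40 overlapped the span of their own gene, 6 overlapped another gene and 19 overlapped none. The 7 regions assigned to Nppb and the single region of Nppa were all intergenic, and no region lay inside either of these short genes. Tnni3 likewise had no region inside its span. Its only region lay upstream, in the neighbouring ciliary assembly gene Dnaaf3. Of the 6 regions assigned to Tnnt2, 2 lay in Lad1, which encodes ladinin, 2 in Pkp1, which encodes the desmosomal protein plakophilin, 1 in no gene and 1 in Tnnt2 itself. By the authors' annotation 47.5% of the 40 regions were intergenic, against 68.1% of all regions, and 15% were exonic, against 2.06%. Of the 6 exonic regions, 5 lay in myosin heavy chain genes. These genes share long stretches of near-identical coding sequence, and the sources used here do not give how reads mapping to several places were treated, so counts at myosin exons may be shared between the copies.

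The promoter sequences of Actc1 and Tnni3 are shown because regions of the mark lay on or beside these start sites. The authors' annotation also places a region at the 1 kb promoter of a start in Myl4, Myh13 and Myh6 (1003 bp away in Myh6). In these genes the start is an internal one, away from the RefSeq promoter. Each sequence runs 5′ to 3′ from 250 bases before to 50 bases after the RefSeq start, and is credited to RefSeq (GRCm38.p6). Capitals mark matches to the E-box (CANNTG, the motif of the myogenic bHLH factors) and to the CArG box, the motif of SRF.
Actc1: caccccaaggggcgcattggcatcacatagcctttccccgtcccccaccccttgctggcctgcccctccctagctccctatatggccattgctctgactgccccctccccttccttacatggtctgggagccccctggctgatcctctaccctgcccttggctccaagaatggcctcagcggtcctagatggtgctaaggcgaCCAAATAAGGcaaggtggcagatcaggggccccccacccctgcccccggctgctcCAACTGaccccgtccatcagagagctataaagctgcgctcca
Tnni3: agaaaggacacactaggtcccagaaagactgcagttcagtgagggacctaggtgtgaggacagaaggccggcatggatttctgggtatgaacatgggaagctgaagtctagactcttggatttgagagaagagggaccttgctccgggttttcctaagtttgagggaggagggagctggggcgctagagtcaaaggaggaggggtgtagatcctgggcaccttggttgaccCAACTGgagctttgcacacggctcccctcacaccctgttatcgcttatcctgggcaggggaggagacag
The Actc1 sequence lies on the minus strand at chr2:114052826-114053125, and the region at 114052925 to 114053274 covers the 201 bases of it farthest upstream. The Tnni3 sequence lies on the minus strand at chr7:4522479-4522778, 299 bp from the nearest region. Both hold a single E-box, as 72.3% of the 32851 RefSeq promoters of this length hold at least one, and Actc1 holds a CArG box, found in 1.63%. Searched on both strands in the 11 promoters of the 10 genes, the E-box was in 10, the MCAT motif of TEAD factors (CATTCC) in 3, against 14.7% of all promoters, the CArG box in 2 (Actc1 and Myh13), and the MEF2 motif in 1 (Myh8), against 3.19%. A match is a description of the letters and does not show a bound factor.

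The level of the mark was compared between genes per length, over each RefSeq span widened by 10 kb on each side. Actc1 had the highest density, 0.544 ± 0.164 CPM per kb in the knockouts and 0.754 ± 0.200 CPM per kb in the wild types (SD, n = 3 each). It stood at percentile 89.7 of 21900 protein-coding genes, whose median was 0.144 CPM per kb, and its 6 libraries, from 0.356 to 0.984 CPM per kb, lay above all libraries of Tnnt2, the next gene by mean. In knockout replicate 4 Nppb was higher, at 0.446 CPM per kb, against 0.356 for Actc1. The windows of Nppb and Nppa share the region at 147995981, which is the only region in that of Nppa. In knockout replicate 4 it held 18 of the 43 counts of the Nppb window, so these 2 densities are not separate measurements. Tnnt2 (0.245 CPM per kb over the 6 libraries), Myh3 (0.242), Nppb (0.241), Myh8 (0.230) and Myh6 (0.189) followed, between percentiles 57.0 and 64.3. Myl4 (0.140), Tnni3 (0.127), Myh13 (0.116) and Nppa (0.112) were below the median gene, at percentiles 43.9 to 49.3. Below Actc1, the ranges of neighbours in this order overlapped, so their order is not set beyond the spread between libraries. Of all protein-coding genes 21.8% had no region in this window, and the median and percentiles above include them. Among protein-coding genes with a region the median was 0.217 CPM per kb. Each of the 10 genes had at least 1, but genes without an assigned region give nothing to describe here, so that is not a result. Per length of the region itself, the 40 regions had a median density of 8.99 CPM per kb, against 10.1 CPM per kb over all regions, and 25 of them lay under the median region.

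**Figure D1:**
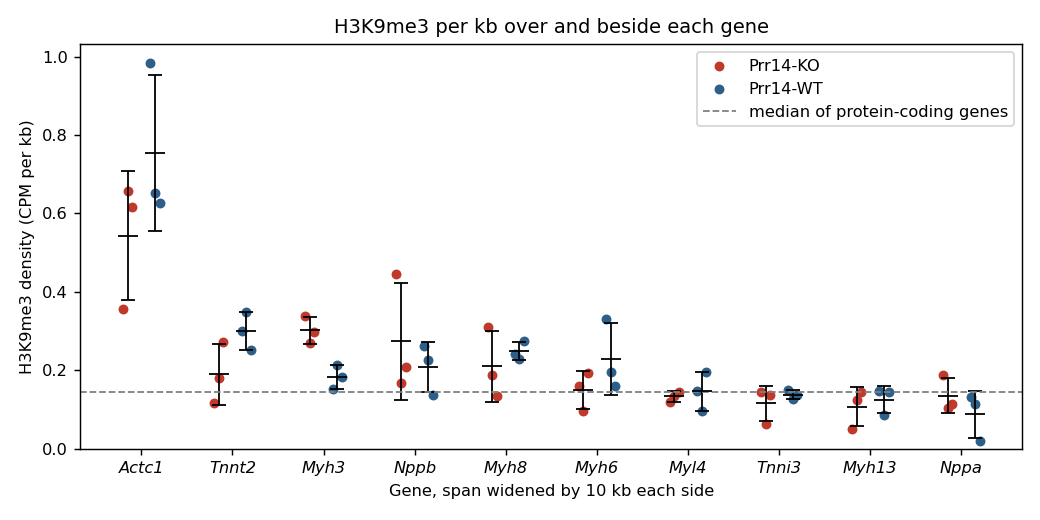
H3K9me3 density over the 10 genes, in CPM per kb of RefSeq span widened by 10 kb on each side, with a point per library and the mean and SD of 3 libraries for Prr14-KO (red) and Prr14-WT (blue). Actc1 has the highest mean, with Nppb above it in knockout replicate 4, and the dashed line marks the median of protein-coding genes, 0.144 CPM per kb. The windows of Nppb and Nppa share a region.

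The comparison of genotypes asks whether loss of Prr14 moves H3K9me3 at these genes. No region passed: of the 32 regions with enough counts to be tested, 0 had an edgeR adjusted p under 0.05 (smallest 0.998), where 0.0130% of all 153789 tested regions did. DESeq2 and limma-voom also called 0, with 3 and 1 of them at an unadjusted p under 0.05. DESeq2 gave no adjusted p for part of these regions, so it could not call them. Among those were the Myh3 region at 67094523 and the Tnnt2 region at 135828860. Without adjustment, 3 of the 32 (9.38%) had an edgeR p under 0.05, where 3.86% of all tested regions did. Of these, 1 was higher in the knockouts, in Myh3 (2.07% of all were higher), and 2 were lower, assigned to Tnnt2 and Actc1 (1.78% of all were lower). The genotypes did not overlap at 6 of the 32 (18.8%, against 9.60% of all), with the knockouts above at 3 (4.70% of all) and below at 3 (4.91% of all). The log2 change was above 0 at 13 of the 32 and below 0 at 19, where 50.3% of all tested regions were above 0. The median was -0.13, against 0.00 for all regions that were tested. Single values lay between -1.93 and 1.81 and had a median standard error of 0.54, so only large changes at a single region could have been told from the spread. In the authors' deposited table, 31 of the 40 regions have an adjusted p, of which the smallest is 1.00.

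**Figure D2:**
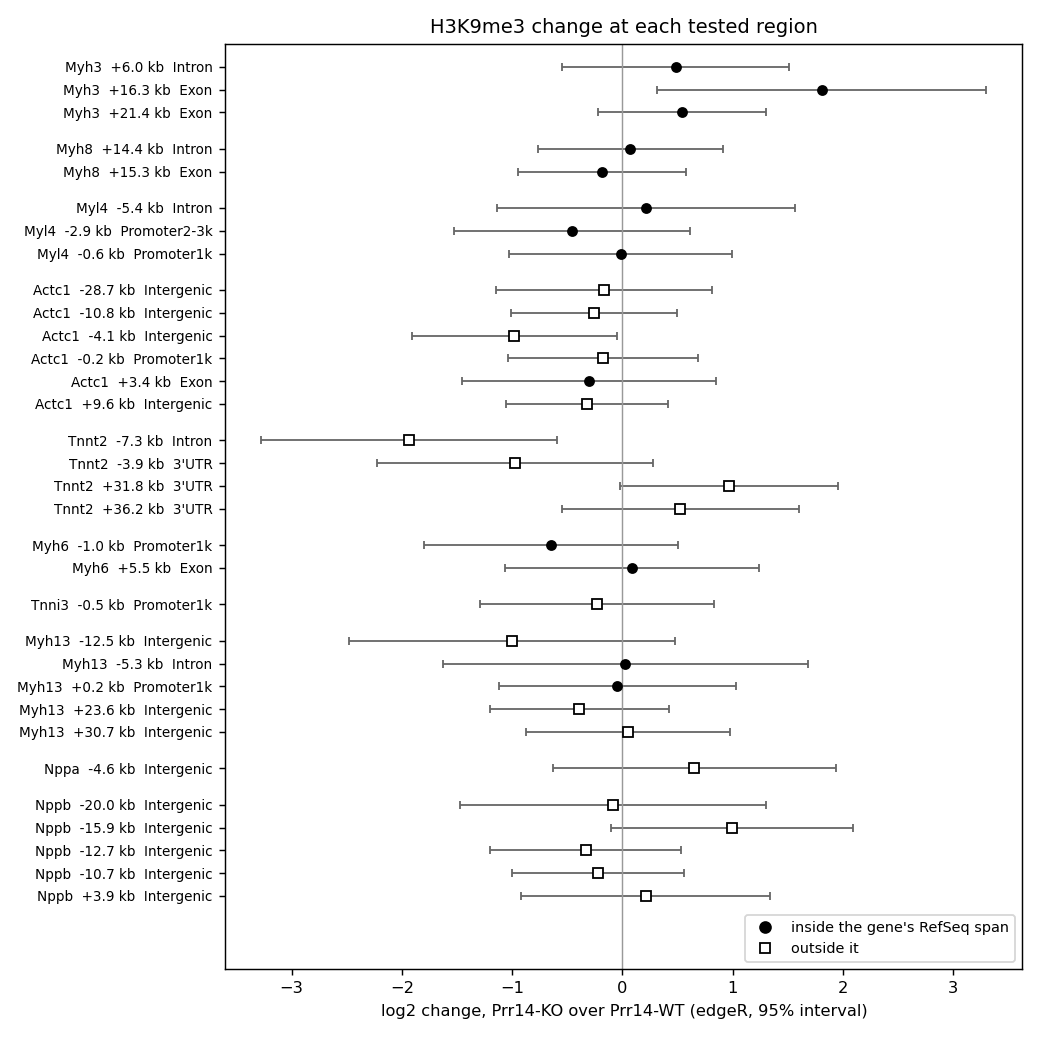
Log2 change of H3K9me3, Prr14-KO over Prr14-WT, at each of the 32 tested regions with the 95% interval of the edgeR fit, labelled by gene, distance from the assigned start site and the authors' annotation. Filled circles lie inside the RefSeq span of the named gene and open squares outside it. The changes run from -1.93 (Tnnt2, in Lad1) to 1.81 (an exon of Myh3), and most intervals include 0.

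Myh3 encodes the embryonic myosin heavy chain, and its regions inside the gene had log2 changes above 0. The exonic region at 67094523 to 67094728 on chromosome 11 held 15, 15 and 14 counts in the knockouts, against 4, 4 and 5 counts in the wild types. Every knockout value was above every wild-type value, at 3.30 ± 0.143 CPM in the knockouts and 0.924 ± 0.135 CPM in the wild types (SD, n = 3 each). The log2 change was 1.81 (SE 0.76), which did not pass over all regions (edgeR adjusted p = 0.998). The exonic region at 67099458 to 67099934, which RefSeq also places over the microRNA gene Mir6923, held 24, 27 and 33 counts in the knockouts, against 18, 23 and 20 counts in the wild types. These groups did not overlap either, with a log2 change of 0.54 ± 0.39 SE (adjusted p = 0.998 by edgeR). The intronic region at 67084210 to 67084463 held 28, 11 and 12 counts in the knockouts, against 9, 16 and 13 counts in the wild types, and overlapped.

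Beyond the 3′ end of Myh3, the untested intergenic region at 67122372 held 15, 7 and 12 counts in the knockouts, against 2, 0 and 5 counts in the wild types, without overlap. Its neighbour at 67121381 held 13, 1 and 5 counts in the knockouts, against 6, 11 and 8 counts in the wild types, with overlap. Over all 5 regions assigned to Myh3, the sum was 17.2 ± 3.45 CPM in the knockouts and 10.3 ± 1.78 CPM in the wild types (SD, n = 3 each), with all knockouts above all wild types. Its log2 change was 0.74 (SE 0.26, 95% interval from 0.23 to 1.26), and it did not pass over the 15265 gene sums (edgeR adjusted p = 1.00). The 3 regions inside the gene held 67, 53 and 59 counts in the knockouts, against 31, 43 and 38 counts in the wild types. Over the widened span the log2 change was 0.72 (SE 0.29, edgeR adjusted p = 1.00).

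Myh8 encodes the perinatal myosin heavy chain, and its regions differed by less than the spread. The intronic region at 67291582 to 67291962 held 30, 22 and 10 counts in the knockouts, against 25, 16 and 21 counts in the wild types. The exonic region at 67292422 to 67293109 held 31, 15 and 20 counts in the knockouts, against 25, 19 and 35 counts in the wild types. In both, the groups overlapped and knockout replicate 4 was the highest knockout. The sum was 9.49 ± 3.39 CPM in the knockouts and 10.1 ± 2.22 CPM in the wild types (SD, n = 3 each), a log2 change of -0.08 (95% interval -0.70 to 0.54; edgeR adjusted p = 1.00).

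Myh13 encodes the superfast myosin heavy chain of extraocular and laryngeal muscles, and lies last in the same cluster. Its 7 regions held from 0 to 35 counts per library, and none was without overlap between the genotypes. The exonic region at 67337770 held 4, 6 and 7 counts in the knockouts, against 15, 6 and 10 counts in the wild types. The region beside an internal start, at 67364769 to 67365226, held 5, 18 and 16 counts in the knockouts, against 17, 6 and 20 counts in the wild types. The intronic region at 67359357 held 6, 4 and 13 counts in the knockouts, against 12, 2 and 10 counts in the wild types. At each of these the genotypes overlapped. With the most counts, the intergenic region at 67388096 held 17, 20 and 18 counts in the knockouts, against 9, 35 and 32 counts in the wild types. The intergenic region with the smallest p of the gene, at 67309051 upstream, held 11, 6 and 1 counts in the knockouts, against 8, 19 and 11 counts in the wild types (log2 change -1.004, SE 0.75). The sum of the 7 was 16.3 ± 2.23 CPM in the knockouts and 20.02 ± 2.01 CPM in the wild types (SD, n = 3 each), with all knockouts below all wild types. They were close, with the highest knockout at 17.9 CPM and the lowest wild type at 18.1 CPM. The log2 change of the sum was -0.30 (SE 0.22, 95% interval from -0.74 to 0.14, edgeR adjusted p = 1.00). The groups overlapped over the 3 regions inside the gene and over the 4 outside it. They also overlapped over the widened span, where the log2 change was -0.22 (SE 0.36).

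Myh3, Myh8 and Myh13 lie in a single cluster of 293 kb with the adult fast genes Myh2, Myh1 and Myh4 between them. The adult genes, which encode the heavy chains of fast limb fibres, carried fewer regions: 1 region lay inside Myh2, 0 inside Myh1 and 1 inside Myh4, against 3 inside Myh3, 2 inside Myh8 and 3 inside Myh13. Density over the widened spans was 0.242 CPM per kb at Myh3, 0.230 at Myh8 and 0.116 at Myh13, against 0.0337 at Myh2, 0.0352 at Myh1 and 0.0386 at Myh4, as means of the 6 libraries. The Myh2 and Myh1 values rest on the same counts, those of the region inside Myh2. The Myh8 window also takes in the intergenic region at 67309051, which is assigned to Myh13. The region inside Myh2 held 8, 4 and 6 counts in the knockouts, against 1, 14 and 10 counts in the wild types, and that inside Myh4 held 3, 20 and 1 counts in the knockouts, against 9, 4 and 8 counts in the wild types. An intergenic region between Myh3 and Myh2, at 67130046 and assigned to Myh2, was looked up after its values were seen. It held 12, 10 and 8 counts in the knockouts, against 3, 6 and 3 counts in the wild types, and was not tested for want of counts. The bin of 1 Mb that holds the cluster, from 67 to 68 Mb, was at 172 ± 15.7 CPM in the knockouts and 170 ± 14.4 CPM in the wild types (SD, n = 3 each), a log2 change of 0.02 (95% interval -0.18 to 0.21).

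**Figure D3:**
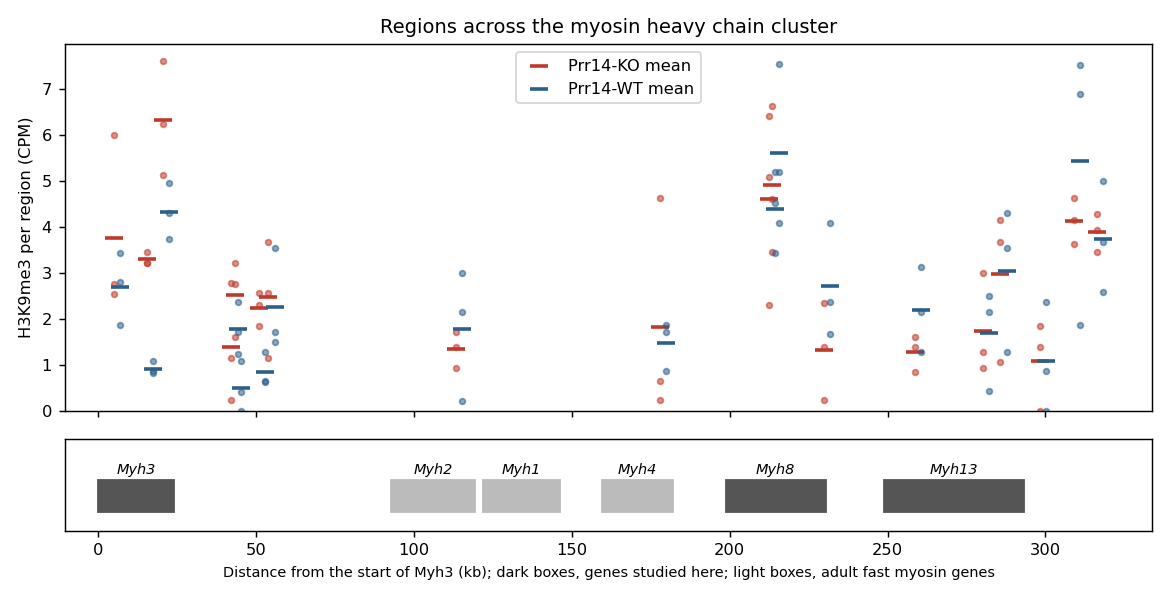
H3K9me3 in CPM at the 18 regions across the myosin heavy chain cluster on chromosome 11, by distance from the start of Myh3 in kb, with a point per library and a bar for the mean of 3 libraries in Prr14-KO (red) and Prr14-WT (blue). Boxes under the plot are the RefSeq spans. The sum over Myh3 is higher in the knockouts, at 13.3 ± 1.50 CPM over the widened span against 8.04 ± 1.39 CPM in the wild types, while the genotypes overlap at each region of Myh8 and Myh13.

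Myh6, the cardiac alpha myosin heavy chain of the atrium and of the adult mouse ventricle, had 2 regions on chromosome 14. That beside an internal start near the 3′ end, at 54945313 to 54945714, held 8, 14 and 6 counts in the knockouts, against 25, 16 and 6 counts in the wild types. The exonic region at 54960927 to 54961192 held 14, 5 and 18 counts in the knockouts, against 23, 4 and 10 counts in the wild types. Both overlapped, and wild-type replicate 3 was the highest library in each. The sum was 4.85 ± 0.567 CPM in the knockouts and 5.999 ± 3.70 CPM in the wild types (SD, n = 3 each), a log2 change of -0.31 (95% interval -1.20 to 0.59; edgeR adjusted p = 1.00). Its neighbour Myh7, the slow and cardiac beta heavy chain, was singled out after its values were seen. Of 6 adult fast and 7 slow sarcomere genes tested, only its sum had an unadjusted edgeR p under 0.05, where 3.58% of all sums did. The 2 regions assigned to Myh7 summed to 3.73 ± 0.114 CPM in the knockouts and 7.30 ± 1.05 CPM in the wild types (SD, n = 3 each). This was a log2 change of -0.96 ± 0.44 SE (adjusted p = 1.00 by edgeR). The difference was smaller over the 3 regions inside the RefSeq span of Myh7. These summed to 7.77, 7.40 and 7.57 CPM in the knockouts, against 7.96, 9.44 and 11.8 CPM in the wild types.

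Myl4 encodes the essential myosin light chain of the atrium and of embryonic skeletal muscle. Its 3 regions on chromosome 11 all lay inside the gene. The intronic region at 104569814 to 104570308 held 18, 4 and 10 counts in the knockouts, against 18, 8 and 3 counts in the wild types. The region at 104572215 to 104572964, upstream of an internal start, held 2, 16 and 16 counts in the knockouts, against 14, 13 and 23 counts in the wild types. The region at 104584069 to 104584581, closer to another internal start, held 13, 17 and 14 counts in the knockouts, against 10, 6 and 31 counts in the wild types. None separated the genotypes, and the sum was 8.21 ± 0.943 CPM in the knockouts and 8.99 ± 3.13 CPM in the wild types (SD, n = 3 each). Its log2 change was -0.13 (95% interval -0.79 to 0.53; edgeR adjusted p = 1.00).

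Actc1, the cardiac alpha-actin gene that embryonic skeletal muscle also uses, had 6 regions in the gene and its flanks on chromosome 2. All 6 had a log2 change below 0, from -0.98 to -0.17, and none passed. The intergenic region at 114057453 to 114057790, which RefSeq places in the gene model C130080G10Rik, 4074 bp upstream of the assigned start, held 4, 12 and 19 counts in the knockouts, against 28, 24 and 22 counts in the wild types. It was the only Actc1 region without overlap, with a log2 change of -0.98 ± 0.47 SE (adjusted p = 0.998 by edgeR). The promoter region shown above held 13, 24 and 17 counts in the knockouts, against 30, 18 and 17 counts in the wild types, a log2 change of -0.18 (SE 0.44) with overlap. The exonic region at 114049450 held 6, 12 and 14 counts in the knockouts, against 10, 6 and 26 counts in the wild types. The intergenic region with the most counts, at 114042794 downstream, held 18, 27 and 21 counts in the knockouts, against 49, 28 and 11 counts in the wild types.

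Summed over its 6 regions, Actc1 held 22.1 ± 5.42 CPM in the knockouts and 28.9 ± 7.89 CPM in the wild types (SD, n = 3 each). Wild-type replicate 3 was the highest library and knockout replicate 4 the lowest, and the groups overlapped. The log2 change was -0.38 (SE 0.20; 95% interval -0.78 to 0.01; edgeR adjusted p = 1.00). Over the widened span, with 4 regions, it was -0.47 (SE 0.23, edgeR adjusted p = 1.00). The sum was at -0.14 and the span at -0.24 without wild-type replicate 3, and at -0.23 and -0.25 without knockout replicate 4. The bin from 114 to 115 Mb, of whose counts the Actc1 regions were 14.9%, had a log2 change of -0.04 (95% interval -0.24 to 0.16).

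Tnnt2, the cardiac troponin T gene of chromosome 1 that is also used in embryonic skeletal muscle, had a sum near 0 change made of parts with opposite signs. The sum of its 6 regions was 15.2 ± 1.96 CPM in the knockouts and 15.7 ± 2.14 CPM in the wild types (SD, n = 3 each), a log2 change of -0.05 (95% interval -0.53 to 0.43; edgeR adjusted p = 1.00). Upstream of the gene, in an intron of Lad1, the region at 135828860 to 135829170 held 1, 6 and 6 counts in the knockouts, against 18, 22 and 14 counts in the wild types. All knockouts were below all wild types, and its log2 change of -1.93 (SE 0.68, edgeR adjusted p = 0.998) was the lowest among the 32 tested regions. The region at 135832417 to 135832585, in the 3′ UTR of Lad1, held 6, 5 and 11 counts in the knockouts, against 13, 14 and 19 counts in the wild types, also without overlap (log2 change -0.97, SE 0.64).

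Downstream of Tnnt2, in regions that lie in Pkp1, the values ran the other way. The region at 135872427 to 135872969, annotated as 3′ UTR, held 19, 31 and 13 counts in the knockouts, against 14, 11 and 9 counts in the wild types. After scaling, all knockouts were above all wild types there (log2 change 0.97, SE 0.50, edgeR adjusted p = 0.998). The other Pkp1 region, at 135876976, held 22, 15 and 11 counts in the knockouts, against 15, 10 and 10 counts in the wild types, with overlap. Inside Tnnt2 itself there was a single region, at 135838167 to 135838361, which was not tested, with 5, 8 and 22 counts in the knockouts, against 11, 3 and 6 counts in the wild types. Over the span widened by 10 kb, which takes in the Lad1 regions and leaves out those of Pkp1, the value was 6.84 ± 2.80 CPM in the knockouts and 10.8 ± 1.73 CPM in the wild types (SD, n = 3 each), with overlap. Its log2 change was -0.65 (SE 0.33, 95% interval from -1.30 to -0.0049), which did not pass over the 34678 spans tested (edgeR adjusted p = 1.00). It was -0.40 without knockout replicate 4, -1.003 without knockout replicate 7 and -0.23 with 50 kb on each side.

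Tnni3, the cardiac troponin I gene of chromosome 7, had the single region at 4523077 to 4523540 in Dnaaf3. It held 16, 7 and 15 counts in the knockouts, against 17, 14 and 16 counts in the wild types. The groups overlapped, and the gene sum had a log2 change of -0.25 (95% interval -1.44 to 0.95; edgeR adjusted p = 1.00). The bin from 4 to 5 Mb around it was at 321 ± 21.2 CPM in the knockouts and 276 ± 10.6 CPM in the wild types (SD, n = 3 each), with every knockout above every wild type. Its log2 change was 0.22 (SE 0.06, 95% interval from 0.09 to 0.34, edgeR adjusted p = 0.550). Among the alternatives it passed only when knockout replicate 4 was left out (log2 0.27, edgeR adjusted p = 0.0259). The adjusted p in the others lay between 0.565 and 1.00. The Tnni3 region made up 1.04% of the counts of this bin. The gene with the highest difference in this bin was Ppp6r1, a phosphatase subunit gene whose 2 regions summed to 42.0 ± 6.79 CPM in the knockouts and 32.3 ± 2.23 CPM in the wild types, a gene looked up after its values were seen.

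Nppa and Nppb, which encode atrial and brain natriuretic peptide, lie side by side on chromosome 4. The single region of Nppa, intergenic at 147995981 to 147996166 between both genes, held 18, 10 and 11 counts in the knockouts, against 13, 11 and 2 counts in the wild types. It overlapped, with a log2 change of the sum of 0.63 and an interval at 95% of -0.73 to 1.99 (edgeR adjusted p = 1.00). The 7 regions of Nppb lay from 22003 bp before to 3874 bp after its start, and none separated the genotypes. The region at 147969491 to 147970240 had the smallest p, with 10, 14 and 29 counts in the knockouts, against 0, 2 and 26 counts in the wild types, where wild-type replicate 8 stood far above the other wild types. The log2 change was 0.99 (SE 0.56, edgeR adjusted p = 0.998) and moved with single libraries. It was 4.07 without wild-type replicate 8 (edgeR adjusted p = 0.267, the lowest over its alternatives), 0.41 without wild-type replicate 3, 0.52 without wild-type replicate 4 and 0.42 without knockout replicate 7, and 2.47 with limma-voom. The region with the most counts, at 147974934 to 147975303, held 29, 18 and 16 counts in the knockouts, against 22, 34 and 21 counts in the wild types. The Nppb sum was 20.2 ± 2.34 CPM in the knockouts and 20.1 ± 4.98 CPM in the wild types (SD, n = 3 each), a log2 change of 0.01 (95% interval -0.41 to 0.43; edgeR adjusted p = 1.00).

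Nppb has a neighbourhood rich in the mark. The bin from 147 to 148 Mb held 1867 ± 252 CPM in the knockouts and 1824 ± 98.6 CPM in the wild types (SD, n = 3 each), a log2 change of 0.03 (95% interval -0.19 to 0.26). Of its 151 regions, 126 are assigned to zinc finger genes with a Zfp symbol and held 91.6% of its counts. The regions of Nppa and Nppb made up 1.22%. The next bin, from 148 to 149 Mb, which holds the Nppa gene and none of its regions, was at 332 ± 6.21 CPM in the knockouts and 344 ± 9.26 CPM in the wild types.

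At the level of whole genes, 0 of the 10 sums passed the edgeR test, where 0.0393% of 15265 did, and DESeq2 and limma-voom also called 0. Without adjustment 1 of the 10 had an edgeR p under 0.05 (Myh3, higher), where 3.58% of all sums did and 2.06% were higher. The genotypes did not overlap in 2 of the 10, against 8.50% of all sums: Myh3 above (4.30% of all) and Myh13 below (4.19% of all). The median log2 change was -0.11 over the 10 and 0.00 over all genes, and all 10 lay between -0.38 and 0.74. Over the widened spans 0 of the 10 passed, where 0.0260% of 34678 did, and 3 had an unadjusted edgeR p under 0.05 (Myh3 higher, Actc1 and Tnnt2 lower), where 4.14% of all spans did, 2.34% higher and 1.81% lower. That count was 0 without wild-type replicate 3, 1 without knockout replicate 4, over the span alone, with library totals or with DESeq2, and at most 4 in the alternatives run. Limma-voom called 0, and DESeq2 gave no adjusted p for these spans. Of the 8 bins of 1 Mb with a member gene or region, 0 passed, where 0.0760% of 2630 did, and 1 had an unadjusted p under 0.05, that around Tnni3, against 1.60% in either direction and 0.798% higher. Here too DESeq2 and limma-voom called 0. The 3 bins that hold Myh3, Actc1 or Tnnt2 all had intervals within 0.24 of 0, narrower than those of the genes.

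**Figure D4:**
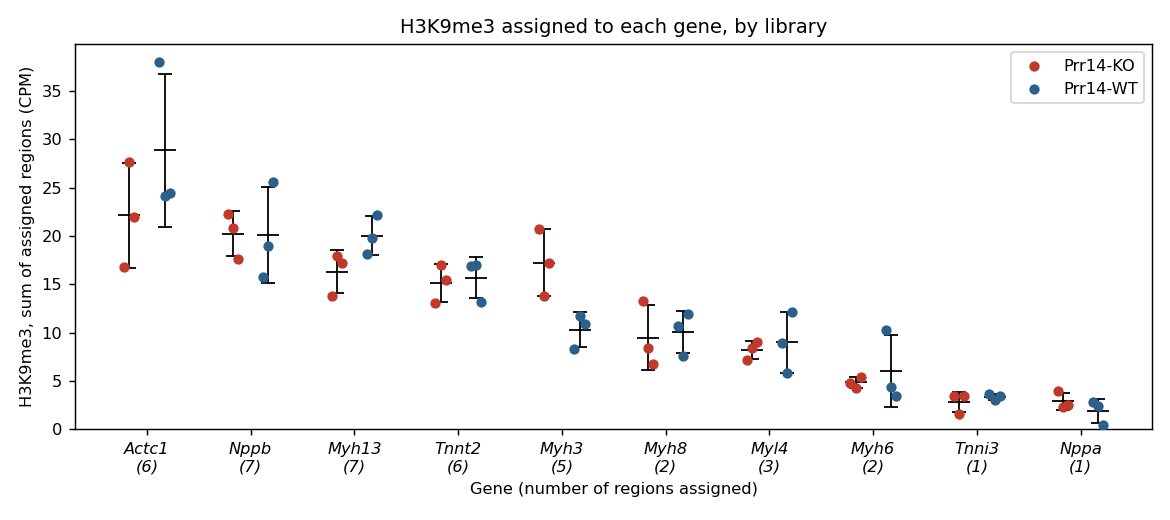
H3K9me3 summed over all regions assigned to each of the 10 genes, in CPM, with a point per library and the mean and SD of 3 libraries for Prr14-KO (red) and Prr14-WT (blue), and the number of regions in brackets. The groups are apart at Myh3 (17.2 ± 3.45 CPM in the knockouts, against 10.3 ± 1.78 CPM in the wild types) and overlap at the other genes except Myh13. At Myh13 they are narrowly apart (highest knockout 17.9 CPM, lowest wild type 18.1 CPM).

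The other genes of these programmes were compared in the same way. Of 14 genes of the adult fast sarcomere, 9 had a region assigned, 6 could be tested and 0 passed the edgeR test. Their median log2 change was 0.10, with values from -0.43 for Mybpc2, a myosin binding protein, to 0.57 for Myh2. The Myh2 value is the sum of 2 intergenic regions between Myh3 and Myh2, at 67130046 and 67133060. It leaves out the region inside Myh2, which the authors assign to Myh1. Of 11 genes of the slow sarcomere, many of them shared with the heart, 8 had a region, 7 were tested and 0 passed, with a median of -0.13 and values from -0.96 (Myh7) to 0.40 (Mybpc1). Among 22 other embryonic and cardiac muscle genes, 20 were tested, 0 passed and the median was 0.02. Of 8 genes of the natriuretic peptide pathway, 7 were tested and 0 passed. Their log2 changes ran from -0.34 (Npr2) to 0.86 (Npr1), with a median of -0.10. The receptor gene Npr3, given as an example with 25 regions, lay inside this range, at -0.17 (SE 0.10). It stood at 96.4 ± 6.61 CPM in the knockouts and 109 ± 3.33 CPM in the wild types (SD, n = 3 each). Of 20 cardiac and myogenic transcription factor genes, 19 were tested, 0 passed and the median was 0.01. Density over the widened spans had a median of 0.210 CPM per kb for the 10 genes, against 0.0478 for the adult fast list, 0.106 for the slow list and 0.463 for the transcription factors. No region lay in this window for 3 of 14 adult fast genes, 2 of 11 slow genes and 1 of 20 transcription factor genes. This held for 0 of the 10 genes, which enter through their assigned regions, so these medians are not of like sets.

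Lists of markers of other cells of muscle (endothelium, satellite cells, fibro-adipogenic cells, macrophages, Schwann cells, smooth muscle and adipocytes) and of muscle fibres held 0 genes that passed. The summed level of the fibre list ran from 231 to 276 CPM in the knockouts and from 212 to 271 CPM in the wild types, and that of the endothelial list from 325 to 358 CPM in the knockouts and from 314 to 382 CPM in the wild types. The fibro-adipogenic list ran from 358 to 399 CPM in the knockouts and from 391 to 420 CPM in the wild types. Its 5 genes had log2 changes from -0.23 (Dcn) to -0.0087 (Col3a1), with a median of -0.04, against 0.00 over all gene sums. Without adjustment 2 marker genes had an edgeR p under 0.05, where 3.58% of all gene sums did. They were 1 of 5 tested in the fibro-adipogenic list and 1 of 7 in the fibre list, with none in the other marker lists. Dcn, the decorin gene, was at 95.2 ± 11.6 CPM in the knockouts and 112 ± 4.16 CPM in the wild types, and Mb, the myoglobin gene, at 28.1 ± 1.13 CPM in the knockouts and 21.5 ± 0.675 CPM in the wild types (SD, n = 3 each; edgeR adjusted p = 1.00 for both). Within the fibre list log2 changes ran from -0.46 (Ckm) to 0.39 (Mb), with a median of -0.03. The part of these marker genes in the results above was not tested. Since the mark is not a measure of expression, these levels do not give the makeup of the tissue. The genes whose sums followed the total of the 40 regions most closely across the 6 libraries were Astn1, Mbnl1 and Pkd2, at a Pearson r of 0.990, 0.988 and 0.987. Among 13302 genes compared, 76 had an r of at least 0.9, and the points share library size and scaling. The genes named are the extremes of this search over 6 points, and no p was computed. No link to the 40 regions is drawn from them.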

How the data were processed

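H3K9me3 CUT&Tag libraries of quadriceps femoris, 3 labelled Prr14-KO and 3 labelled Prr14-WT, were grouped by the genotype labels. The submitters' processing notes name BWA, Trimmomatic, MACS2, bedtools, deepTools and, in version 1.6.3, DESeq2, with the build GRCm38. Settings, spike-in and peak pooling are not given in the sources used here. Raw counts per region were used as deposited by the authors. Positions follow the table, which does not state its counting base. The authors also deposited a normalised signal (the count divided by a factor per library) and a score per region, neither used in a test, a log2 fold change with a p-value, of which only the adjusted p is quoted, and a distance to the start site.

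Tests used edgeR 4.0.16 under R 4.3.3 on the counts (filterByExpr with a minimum count of 10 and a minimum total of 15, TMM, robust quasi-likelihood fit, Benjamini-Hochberg over all features of a level, threshold 0.05), and the procedure was tested on simulated data. Levels were regions, sums by assigned symbol, sums by region midpoint over RefSeq spans (GRCm38.p6) widened by 10 kb, and bins of 1 Mb. CPM are scaled at each level, so they differ slightly between levels. Scaling removes any change shared by all regions. Alternatives were RLE factors, library totals, DESeq2 1.42.0, limma-voom 3.58.1, no count filter, other windows or bins, genic regions only, and leaving out each library. Regions given singly are those not annotated intergenic and, per gene, those with the smallest p and the most counts; a few neighbours and the CArG box were added after values were seen. Genes, lists and tests were chosen with earlier results of these data known. Figures were drawn with matplotlib 3.10.9.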

Additional observations from a re-analysis of the deposited data

How the results depend on the processing

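Across all alternatives run, 0 member regions, gene sums and spans passed the threshold. For bins the count was 0, or 0 to 1 when a library was left out: the bin around Tnni3 passed without knockout replicate 4. DESeq2 gave no adjusted p for the spans and for part of the regions, and a missing adjusted p was counted as not passing. Over all features the number called moved by more than 1.5 times for gene sums without knockout replicate 4 (18, against 6), for spans with 50 kb on each side (36, against 9) or without knockout replicate 4 (20), and for bins of 100 kb (14, against 2), with DESeq2 (4) or without knockout replicate 4 (6). Of 618 values for single regions, genes, spans and bins under an alternative, 559 kept their sign and side of the threshold, 58 changed sign and 1 newly passed; those that changed sign had a log2 change of at most 0.48 in size, and the cause was not tested. Sums and spans of Myh3 and Actc1 kept their sign; those of Actc1 came down to -0.14 and -0.24 without wild-type replicate 3. The gene sum of Nppa was above that of Myh3 with limma-voom (0.91, against 0.74) and without wild-type replicate 3 (1.03, against 0.61). Members with an unadjusted p under 0.05 numbered 1 to 5 for regions, 1 to 2 for gene sums and 0 to 4 for spans. With limma-voom the Myh8 region at 67291582 was at -0.016 and the Myl4 region at 104584069 at 0.30. With 50 kb on each side the spans of Tnni3 and Nppb were at 0.055 and -0.0029. Alternatives were run singly for 26 of the 32 tested regions, those that the rule for named regions takes. Leaving out each library in turn gave these ranges of log2 change where the sign turned. Regions: Actc1 at 114042794 (-0.71 to 0.24), Actc1 at 114049450 (-0.66 to 0.51), Actc1 at 114052925 (-0.46 to 0.11), Myh13 at 67359357 (-0.60 to 0.41), Myh13 at 67364769 (-0.41 to 0.35), Myh3 at 67084210 (-0.035 to 0.70), Myh6 at 54960927 (-0.33 to 0.86), Myh8 at 67291582 (-0.26 to 0.39), Myh8 at 67292422 (-0.48 to 0.076), Myl4 at 104569814 (-0.34 to 0.98), Myl4 at 104572215 (-0.80 to 0.048), Myl4 at 104584069 (-0.40 to 0.95), Nppb at 147974934 (-0.49 to 0.046), Tnni3 at 4523077 (-0.40 to 0.042). Gene sums: Myh8 (-0.41 to 0.11), Myl4 (-0.36 to 0.14), Tnnt2 (-0.16 to 0.040), Myh6 (-0.59 to 0.32), Tnni3 (-0.43 to 0.035), Nppb (-0.14 to 0.22). Spans: Myh8 (-0.63 to 6.9e-05), Myl4 (-0.37 to 0.12), Tnni3 (-0.46 to 0.031), Myh13 (-0.50 to 0.10), Nppb (-0.15 to 0.65). Bins: chromosome 11 from 104 Mb (-0.027 to 0.12), chromosome 11 from 67 Mb (-0.050 to 0.089), chromosome 14 from 54 Mb (-0.058 to 0.060), chromosome 1 from 135 Mb (-0.10 to 0.0044), chromosome 2 from 114 Mb (-0.11 to 0.085), chromosome 4 from 147 Mb (-0.069 to 0.12). No paired analysis was possible because the genotypes share only replicate number 4. A region of about 13.1 counts per library has a standard error near 0.54, which limits what could be detected.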
